A study of Rattus norvegicus with 43 samples.

Results

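The insulin-like growth factor (IGF) genes described here are 9: the ligands Igf1 and Igf2, the receptors Igf1r and Igf2r, and the binding proteins Igfbp2, Igfbp3, Igfbp4, Igfbp5 and Igfbp6. They were chosen by symbol, as the probe sets to which the platform annotation gives only 1 of these symbols. This gave 22 probe sets of 31099 on the array and 9 of 14217 genes with a named probe set. Where a gene had several, the brightest on average over the 43 arrays was taken as its main probe set. A level under log2 4 was treated as background, and 7 of the 9 genes entered the tests because their log2 level was above 4 in at least 4 arrays. Igfbp3 and Igfbp4 did not, and their main probe sets stayed under log2 4 in every array.

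The RNA came from A7r5, an established line of smooth muscle cells from rat aorta, kept in custom-made DMEM with 2.5, 10 or 100 ng/ml of folic acid, called deficient, sufficient and excess medium. Cells were harvested after 7, 14 or 21 days, and total RNA was hybridised to Affymetrix Rat230_2 arrays, which read mainly the 3' ends of transcripts. Each group has 5 arrays, except the deficient and excess groups of day 7, which have 4. All groups are the same cell line. Replicates may or may not be separate cultures, which the labels leave unsaid, so each p-value refers only to variation among these samples, and that variation may be technical. Such bulk samples cannot tell fewer cells of a kind from less RNA per cell.

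IGF-I and IGF-II are secreted growth factors that signal through the tyrosine kinase IGF1R to the PI3K-AKT and MAP kinase pathways. IGF2R, also known as the cation-independent mannose 6-phosphate receptor, has no kinase: it takes up IGF-II for degradation and carries newly made hydrolases to lysosomes. The binding proteins hold the ligands outside the cell, extend their life and block or release them, and vascular smooth muscle cells are known to make several of them and to divide, survive and differentiate in response to IGF-I.

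Levels are compared within a gene and not between genes, since probes differ in brightness. Replicate arrays correlated at 0.991 to 0.998. All 10 smooth muscle markers were above log2 4 in every group, and 0 of 5 hepatocyte, 0 to 1 of 5 endothelial and 1 of 6 macrophage markers were. Fibroblast markers numbered 3 to 4 of 7. Of 11 skeletal muscle markers on the array, 4 to 6 were above log2 4, while Myog, a defining regulator of skeletal muscle, had group means under log2 4 at day 7 and day 21 in sufficient medium (3.34 and 3.43). The difference between the 3' and 5' beta-actin controls, a sign of RNA integrity, had medians of 1.66 to 1.91 in 7 groups and of 2.37 and 2.30 in excess medium at days 14 and 21. Its 3 highest values, 2.79 to 2.80, belong to excess arrays whose titles carry running numbers from 53 to 56. Raised values were not confined to these numbers. Number 56 read 2.37, and excess arrays numbered 29 and 44 read 2.37 and 2.30, with 2.38 in a day 7 sufficient array. The 4 excess arrays numbered 53 to 56, 2 at day 14 and 2 at day 21, are called the late excess arrays for their high numbers alone. The labels do not say that the number gives an order in time or a batch, and some arrays share a number. For the main probe sets of the 7 tested members, results are given without them where that changes a call or bears on a value. For other genes and other single probe sets no such fit is given, so their excess differences were not checked in this way.

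Promoters are shown for the receptor and the binding proteins whose levels separated the media most, as the 250 bases before the RefSeq start in the GRCr8 build, 5' to 3' on the gene's strand, with E-boxes (CANNTG, bound by basic helix-loop-helix factors) in capitals. Igfbp2 (chr9:81864561-81864810, plus strand) and Igfbp5 (chr9:81914188-81914437, minus strand) are immediate neighbours in that annotation, and Igf2r lies at chr1:50526628-50526877 on the plus strand.
Igf2r: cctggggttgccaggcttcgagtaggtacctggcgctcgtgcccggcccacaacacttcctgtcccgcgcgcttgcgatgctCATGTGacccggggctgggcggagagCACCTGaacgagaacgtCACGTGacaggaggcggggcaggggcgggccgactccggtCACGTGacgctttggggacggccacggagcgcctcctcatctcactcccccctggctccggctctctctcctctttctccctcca
Igfbp2: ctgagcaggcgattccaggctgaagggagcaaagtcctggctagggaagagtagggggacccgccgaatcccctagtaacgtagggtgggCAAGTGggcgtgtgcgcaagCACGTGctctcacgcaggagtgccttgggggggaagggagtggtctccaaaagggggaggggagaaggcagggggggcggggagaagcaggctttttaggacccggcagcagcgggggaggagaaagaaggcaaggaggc
Igfbp5: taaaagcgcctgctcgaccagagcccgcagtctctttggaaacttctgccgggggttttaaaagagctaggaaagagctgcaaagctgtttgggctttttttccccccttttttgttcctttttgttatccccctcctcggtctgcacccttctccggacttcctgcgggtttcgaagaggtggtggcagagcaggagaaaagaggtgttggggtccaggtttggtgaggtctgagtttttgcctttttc
The Igf2r window holds 4 E-boxes, of which 2 are CACGTG within the palindrome TCACGTGA, at 126 to 119 and at 86 to 79 bases before the start. The palindrome is the core of the element through which lysosomal genes are known to be controlled. CANNTG occurs in 65.5% of the 33469 rat promoter windows of this length, CACGTG in 5.59% and TCACGTGA in 0.657%. The Igfbp2 window holds 2 E-boxes, of which 1 is CACGTG, and the Igfbp5 window holds 0. Among the genes not shown, Igf1r, called in no comparison, also has 1 CACGTG, and Igfbp6 has 4 E-boxes. GGGCGG, the GC box bound by Sp1, was searched on both strands and occurs in 30.5% of the windows: it is found 2 times for Igf2r, 1 time for Igfbp2 and 0 times for Igfbp5. These motifs overlap by construction (TCACGTGA contains CACGTG, which is a CANNTG), were searched after the expression values were known, and are a description of the sequence only.

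**Figure D1:**
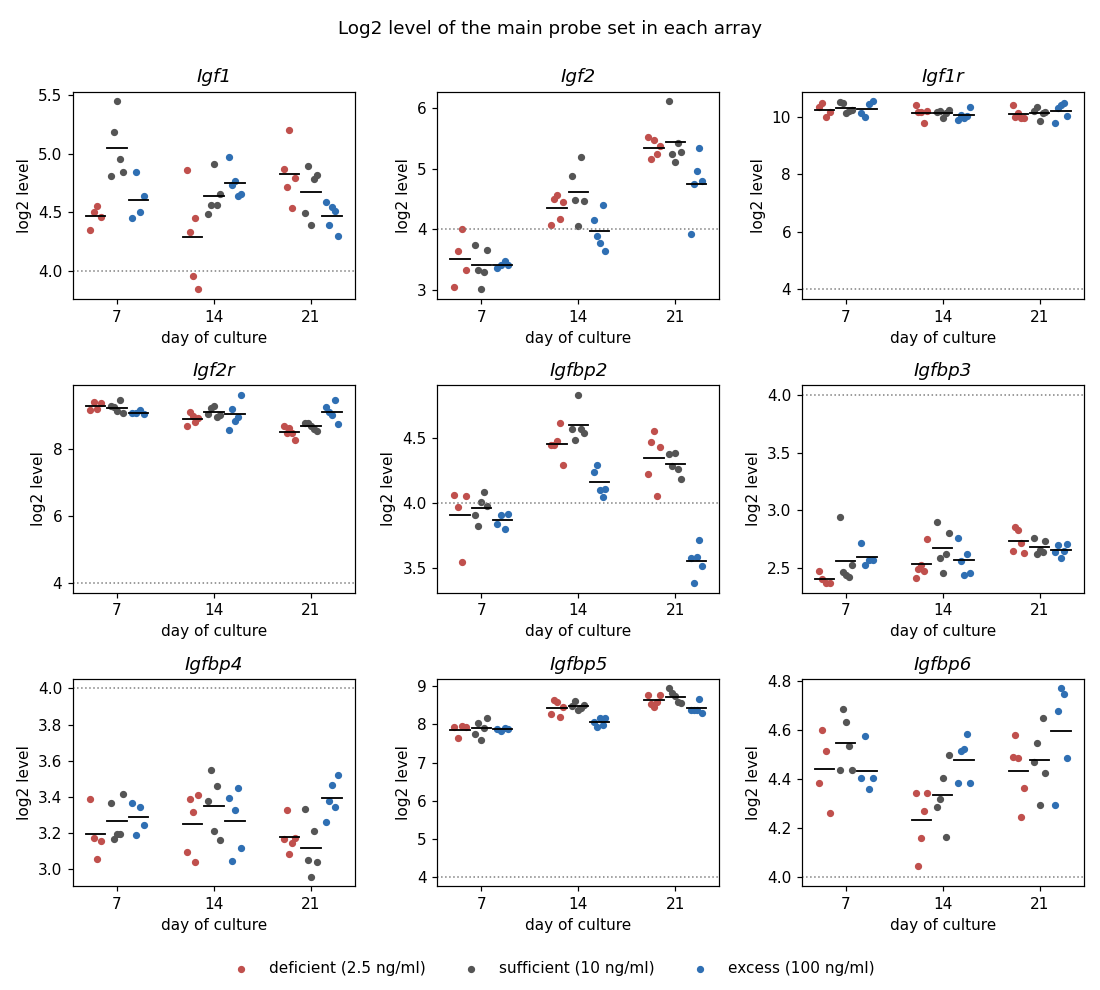
Log2 level of the main probe set of each gene (y axis) in each of the 43 arrays by day of culture and folic acid (x axis). Points are arrays, black bars group means, and the dotted line is the background limit of log2 4. Igf2 rises with time in each medium, and Igfbp2 at day 21 in excess medium lies under all other day 21 arrays.

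The first question is what changed with time in culture. In sufficient medium, the ligand Igf2 rose, the scavenging receptor Igf2r fell, and the binding proteins Igfbp2 and Igfbp5 rose between day 7 and day 21, while Igf1 fell slightly. These 5 of 7 tested genes compare with 62.6% of all genes called in that comparison, so the share of changed genes is near the background.

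Igf2, a fetal growth factor made from an imprinted locus, showed the largest time difference of the 7. In sufficient medium its level was 3.74, 3.66, 3.32, 3.29 and 3.00 at day 7, and 6.12, 5.43, 5.28, 5.24 and 5.11 at day 21. All day 7 arrays were under the background limit and all day 21 arrays above it, with no overlap. The difference was 2.03 ± 0.21 (log2, SE, n = 5 and 5; limma adjusted p = 6e-11), or 4.09-fold, a ratio that starts from background and is therefore not exact. The rise came in steps of 1.21 from day 7 to day 14 (limma adjusted p = 8e-06) and 0.82 from day 14 to day 21 (limma adjusted p = 0.00195). Deficient medium gave a difference of 1.85 (limma adjusted p = 2.36e-09) and excess medium one of 1.34 (limma adjusted p = 2.21e-06) from day 7 to day 21. Background shares in these comparisons were 44.6% of genes called for day 14 against day 7 and 34.6% for day 21 against day 14 in sufficient medium, 64.8% for day 21 against day 7 in deficient medium and 60% in excess medium, where 5, 4, 5 and 3 of the 7 tested genes were called.

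Only the main Igf2 probe set rose above background. The other 3 were at background, with levels between 1.78 and 3.70 in single arrays, so the Igf2 result rests on 1 probe set.

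Igf2r moved the other way in sufficient medium. Its levels were 9.44, 9.28, 9.23, 9.12 and 9.06 at day 7 and 8.78, 8.76, 8.68, 8.60 and 8.54 at day 21, with no overlap. The difference was -0.56 ± 0.12 (log2, SE; limma adjusted p = 0.000189), or 1.47-fold lower. In deficient medium Igf2r fell by 0.79 (limma adjusted p = 2.4e-06), and in excess medium the difference was 0.03 (95% interval -0.24 to 0.30). The second Igf2r probe set gave -0.41 in sufficient and -0.89 in deficient medium (limma adjusted p = 0.00539 and 5.21e-07).

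Igfbp5, which binds matrix and can both raise and lower IGF action, rose at its main probe set in all media. Its arrays in sufficient medium gave 8.16, 8.05, 7.92, 7.76 and 7.60 at day 7, 8.62, 8.50, 8.48, 8.43 and 8.38 at day 14, and 8.94, 8.83, 8.74, 8.58 and 8.56 at day 21. Day 7 did not overlap the later days, and day 14 and day 21 overlapped. From day 7 to day 21 the difference was 0.83 ± 0.09 in sufficient medium (limma adjusted p = 8.5e-10), 0.77 in deficient medium (limma adjusted p = 2.13e-08) and 0.55 in excess medium (limma adjusted p = 1.3e-05). The smaller step from day 14 to day 21 in sufficient medium (0.25, limma adjusted p = 0.0384) missed the threshold when any of 6 single arrays was left out. The other 2 tested Igfbp5 probe sets gave -0.19 and -0.0010 for that step (limma adjusted p = 0.611 and 0.996), and the mean of the 3 gave 0.02 (limma adjusted p = 0.925).

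Igfbp2, another binding protein of muscle cells, moved close to the background limit. In sufficient medium its levels were 4.08, 4.00, 3.97, 3.91 and 3.82 at day 7, 4.84, 4.57, 4.57, 4.54 and 4.49 at day 14, and 4.39, 4.38, 4.28, 4.26 and 4.18 at day 21. The 3 days did not overlap, with the highest level at day 14. Differences were 0.64 from day 7 to day 14 (limma adjusted p = 1.21e-07), -0.30 from day 14 to day 21 (limma adjusted p = 0.00661) and 0.34 from day 7 to day 21 (limma adjusted p = 0.00101). With only arrays of title numbers up to 45 the step from day 14 to day 21 was -0.19 (limma adjusted p = 0.181).

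Igf1, the ligand that signals most strongly through IGF1R, was low throughout. Its day 7 levels in sufficient medium were 5.45, 5.19, 4.96, 4.84 and 4.81, the highest group of the 9. By day 21 they were 4.90, 4.82, 4.79, 4.49 and 4.39, overlapping the day 7 range. The difference was -0.37 ± 0.14 (limma adjusted p = 0.0187), and it was -0.27 (limma adjusted p = 0.0889) without the day 7 array at 5.45, 1 of 3 arrays whose removal ended the call. The other 2 Igf1 probe sets that passed the filter were not called for this step, at 0.06 and -0.31 (limma adjusted p = 0.729 and 0.0668), so the decrease rests on the main probe set. In deficient medium Igf1 was higher by 0.36 at day 21 (limma adjusted p = 0.0314), a call lost without any of 4 single arrays.

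Igf1r was the flattest of the tested genes. Its group means lay between 10.04 and 10.30, and none of the 16 comparisons was called. From day 7 to day 21 the difference in sufficient medium was -0.17, with a 95% interval of -0.43 to 0.09. A second probe set of Igf1r was lower at day 21 in excess medium (-0.58, limma adjusted p = 0.00378), which the main probe set did not show (-0.08).

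Igfbp6, which prefers IGF-II over IGF-I, ranged from 4.23 to 4.60 in its group means, just above the background limit. It fell by 0.21 from day 7 to day 14 in sufficient medium (limma adjusted p = 0.0411), a call that several alternatives removed. Igfbp3 had group means of 2.41 to 2.74 and Igfbp4 of 3.12 to 3.40, all at background, so no direction is given for either.

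In the order of the 9 group means, neighbouring groups overlapped at every one of 8 steps for each gene except Igfbp2 and Igfbp5, which had 7 overlapping steps. For Igfbp2 the step without overlap separated day 21 in excess medium, the lowest group, from day 7 in excess medium. For Igfbp5 it lay between day 21 and day 14 in excess medium. The share of such steps over all genes was not computed, so these counts do not set Igfbp2 and Igfbp5 apart from other genes.

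With too little folic acid, no difference in these genes passed the test. Deficient against sufficient medium gave 0 calls among the 7 tested genes at day 7, day 14 and day 21, where 0%, 0.088% and 0.781% of all genes were called. At an unadjusted p under 0.05, 551, 787 and 1118 of 9095 genes passed in these comparisons. The largest difference was that of Igf1 at day 7, whose 4 deficient arrays gave 4.55, 4.51, 4.46 and 4.35, all under the 5 sufficient arrays listed above. This difference of -0.58 ± 0.15 (95% interval -0.88 to -0.28) had a limma adjusted p of 0.341.

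At day 21, intervals for deficient minus sufficient medium were -0.51 to 0.33 for Igf2, -0.43 to 0.07 for Igf2r, -0.13 to 0.23 for Igfbp2 and -0.29 to 0.09 for Igfbp5. They leave room for differences of these sizes. The change of the deficiency difference between day 7 and day 21 was called for 0 of the 7 genes (background 0.044%). For Igf1 it was 0.73 (limma adjusted p = 0.174), and 0.77 (limma adjusted p = 0.044) with a covariate for title numbers above 45.

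**Figure D2:**
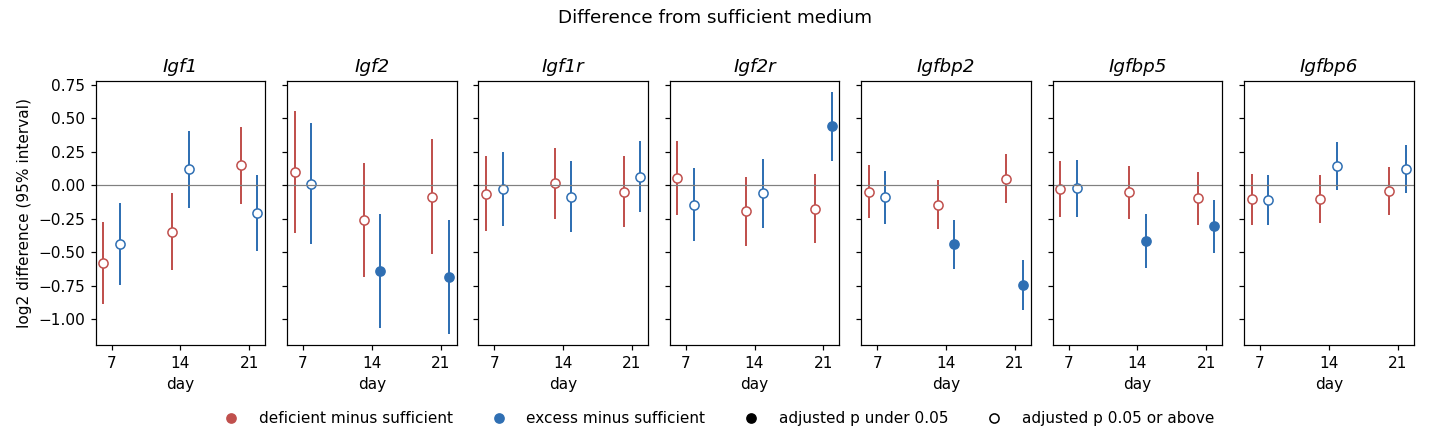
Log2 difference from sufficient medium (y axis) by day (x axis) for the 7 tested genes, in deficient and in excess medium. Points are differences of group means, lines 95% intervals, and filled points have an adjusted p under 0.05. No deficient point is filled, and filled excess points appear at days 14 and 21 for Igf2, Igfbp2 and Igfbp5 and at day 21 for Igf2r.

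Excess folic acid was the condition in which the genes differed from sufficient medium. Igf2, Igfbp2 and Igfbp5 were lower at days 14 and 21, and Igf2r was higher at day 21. At day 7 the count was 0 of 7 (background 2.37%), with Igf1 at -0.44 (limma adjusted p = 0.0909). At day 14 it was 3 of 7, all lower (background 41.2%). At day 21 it was 4 of 7, 3 lower and 1 higher (background 43.7%). These shares are near the background of all genes, and the values of the members follow.

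Igfbp2 gave the clearest separation. At day 14 its excess arrays read 4.29, 4.24, 4.11, 4.10 and 4.05, all under the lowest sufficient array at 4.49. At day 21 they read 3.71, 3.58, 3.58, 3.52 and 3.38, all under the background limit and under the lowest sufficient array at 4.18. The difference was -0.44 ± 0.09 at day 14 (log2, SE, n = 5 and 5; limma adjusted p = 0.000115) and -0.75 ± 0.09 at day 21 (limma adjusted p = 6.6e-09), or 1.68-fold lower, a ratio against background and so understated. Both calls held under each of 23 alternatives, including the fit without the 4 late excess arrays.

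From day 7 to day 21 Igfbp2 rose by 0.34 in sufficient and by 0.44 in deficient medium, from day 7 means under log2 4. In excess medium every array was under log2 4 at both days, at 3.80 to 3.92 on day 7 and 3.38 to 3.71 on day 21, so no direction is given there, although the model called the difference (-0.31, limma adjusted p = 0.004). The excess effect at day 21 minus that at day 7, of which 3 of the 4 group means are at background, gave -0.65 ± 0.13 (limma adjusted p = 0.000194). That interaction was called for 2 of the 7 genes, Igfbp2 and Igf2r (background 24.5%).

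Igf2r was the one gene of the 7 called higher in excess than in sufficient medium. At day 21 its excess arrays gave 9.46, 9.26, 9.11, 9.00 and 8.73, against 8.78 to 8.54 in sufficient medium. The lowest excess array overlapped the sufficient range, and the other 4 lay above it. The difference was 0.44 ± 0.12 (limma adjusted p = 0.00392), or 1.36-fold. The second probe set gave 0.57 (limma adjusted p = 0.000431). At day 7 the difference was -0.145 and not called (limma adjusted p = 0.61). The change of the excess effect from day 7 to day 21 was 0.58 ± 0.18 (limma adjusted p = 0.0149). The 2 late arrays of the day 21 excess group were its lowest. Without the late excess arrays the day 21 difference was 0.60 (limma adjusted p = 7.67e-05).

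At day 14 the 5 excess arrays of Igf2r were spread from 9.61 to 8.57, with an SD of 0.40 against 0.14 in sufficient medium. Here too the 2 late arrays were the lowest, at 8.82 and 8.57. The day 14 difference was -0.06 (95% interval -0.31 to 0.19) with all arrays, and 0.16 without the late excess arrays (limma adjusted p = 0.301), so its sign depends on them. Deficient minus excess medium at day 14 gave -0.13 (limma adjusted p = 0.416) with all arrays and -0.35 (limma adjusted p = 0.0166) without them, and -0.32 (limma adjusted p = 0.0431) with the beta-actin covariate.

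Igf2 was lower in excess medium at both later days, with wider spread. At day 14 the excess arrays gave 4.39, 4.15, 3.89, 3.78 and 3.64, and the sufficient arrays 5.19, 4.88, 4.48, 4.46 and 4.04. At day 21 the excess arrays gave 5.34, 4.96, 4.80, 4.74 and 3.91, against 6.12 to 5.11 in sufficient medium. The ranges overlapped at both days, and the day 14 excess mean (3.97) was at background. Sizes at that day are therefore not exact. The difference was -0.64 ± 0.21 at day 14 (limma adjusted p = 0.0129) and -0.69 ± 0.21 at day 21 (limma adjusted p = 0.00691). The day 14 call was lost without sufficient replicate 3 (-0.50, limma adjusted p = 0.0631) without the late excess arrays (-0.64, limma adjusted p = 0.0523) and with title numbers up to 45 alone (-0.74, limma adjusted p = 0.0719). The day 21 call was kept under each of 23 alternatives.

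Igfbp5 was lower in excess medium as well. At day 14 its excess arrays read 8.17, 8.16, 8.07, 7.99 and 7.95, under every sufficient array. At day 21 they read 8.68, 8.39, 8.37, 8.37 and 8.30, and only the first fell inside the sufficient range. The difference was -0.42 ± 0.09 at day 14 (limma adjusted p = 0.000622) and -0.31 ± 0.09 at day 21 (limma adjusted p = 0.00774). Without the late excess arrays the day 21 value was -0.26 (limma adjusted p = 0.0737).

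The 3 tested Igfbp5 probe sets disagreed on time in excess medium and were all lower in excess than in sufficient medium. In excess medium the main one rose from day 7 to day 21, as given above, while 2 others that passed the filter gave -0.11 (limma adjusted p = 0.748) and -0.02 (limma adjusted p = 0.934) over the same interval. In sufficient medium those probe sets rose by 1.03 and 0.65. For excess against sufficient medium they gave -1.31 and -0.51 at day 14 and -0.92 and -0.55 at day 21 (limma adjusted p = 0.000134, 0.00399, 0.00452 and 0.00183). Their change of the excess effect from day 7 to day 21 was -1.14 and -0.66 (limma adjusted p = 0.0263 and 0.0162), and that of the main probe set was -0.28 (limma adjusted p = 0.131). Another Igfbp5 probe set, at background in every group mean and not tested, was at 3.49 in excess and 3.55 in sufficient medium at day 21.

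**Figure D3:**
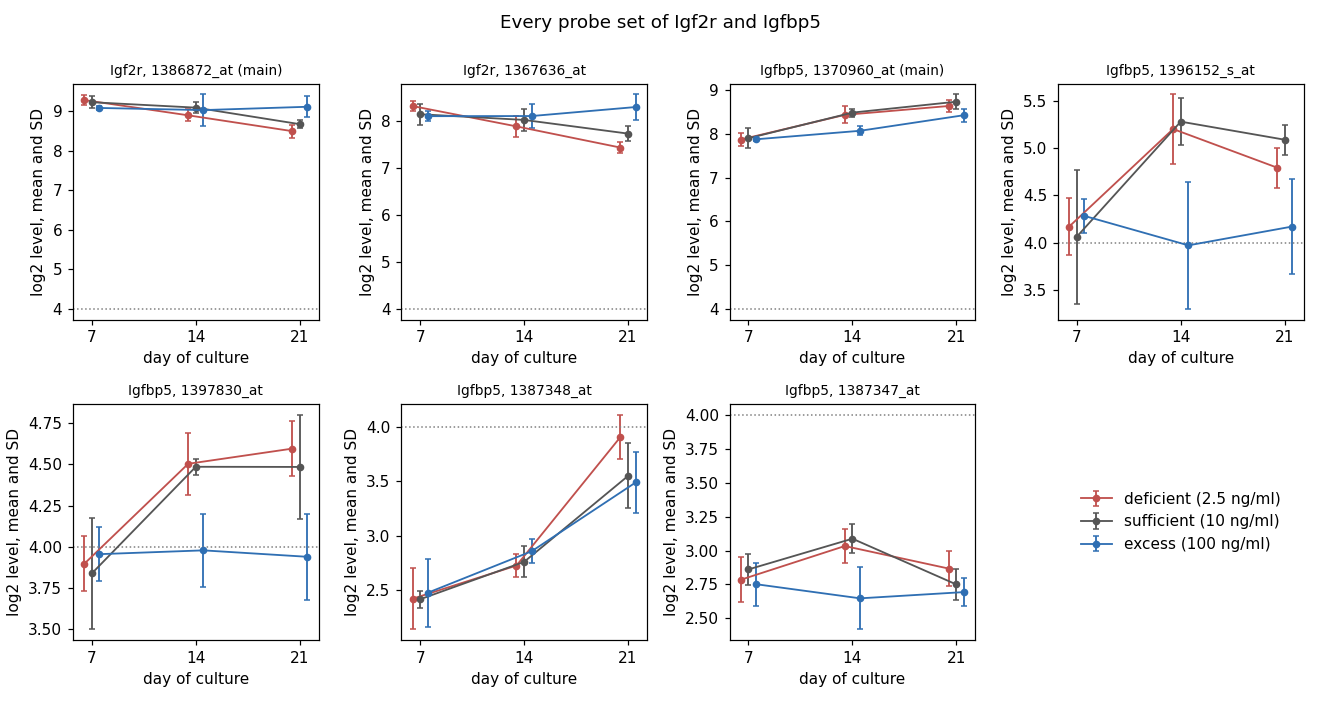
Group means and SDs (y axis, log2) by day (x axis) for every probe set of Igf2r and Igfbp5, with 4 or 5 arrays per point and the background limit dotted. Both Igf2r probe sets end at day 21 in the order excess, sufficient, deficient; for Igfbp5 the main probe set rises in all media, and the other tested ones stay near log2 4 in excess medium.

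Setting deficient against excess medium covers the widest dose range of the study. Calls were 0 of 7 at day 7 (background 5%), 4 of 7 at day 14 with 2 higher and 2 lower in deficient medium (background 40.3%), and 4 of 7 at day 21 with 3 higher and 1 lower (background 50.9%). At day 21 Igfbp2 read 4.55, 4.47, 4.43, 4.22 and 4.05 in deficient medium, above every excess array, a difference of 0.80 ± 0.09 (limma adjusted p = 9.8e-10). Igf2r read 8.67, 8.61, 8.48, 8.47 and 8.25, under every excess array, a difference of -0.62 ± 0.12 (limma adjusted p = 7.3e-05). These arrays of excess medium are the same ones that entered the comparison with sufficient medium.

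Igf2 was 0.60 higher in deficient than in excess medium at day 21 (limma adjusted p = 0.0149), and 0.39 higher without excess replicate 1, the array at 3.91 (limma adjusted p = 0.0973). Igfbp5 was 0.36 higher at day 14 (limma adjusted p = 0.00229), with no overlap, and at day 21 the difference was 0.21 (limma adjusted p = 0.0613). The other 2 tested Igfbp5 probe sets were called at day 21, at 0.62 and 0.66 (limma adjusted p = 0.0449 and 0.000175), and 4 alternatives called the gene, with differences up to 0.50. Igfbp2 at day 14 was 0.30 higher in deficient medium (limma adjusted p = 0.0063). Igf1 was 0.46 lower in deficient medium at day 14 (-0.46, limma adjusted p = 0.00662) and 0.36 higher at day 21 (limma adjusted p = 0.0297), and the latter call was lost without any of 4 single arrays. The other 2 tested Igf1 probe sets did not show the day 14 difference (-0.0042 and 0.0043, limma adjusted p = 0.985 and 0.983), and at day 21 they gave 0.40 and 0.12 (limma adjusted p = 0.0219 and 0.481). Its day 14 deficient arrays ranged from 4.86 to 3.84, and the day 14 value was -0.39 (limma adjusted p = 0.0705) without the late excess arrays. Igfbp6 at day 14 read 4.34, 4.34, 4.27, 4.16 and 4.05 in deficient medium, under the excess arrays at 4.58 to 4.38 (-0.25, limma adjusted p = 0.0194), a call that was lost under 4 alternatives.

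**Figure D4:**
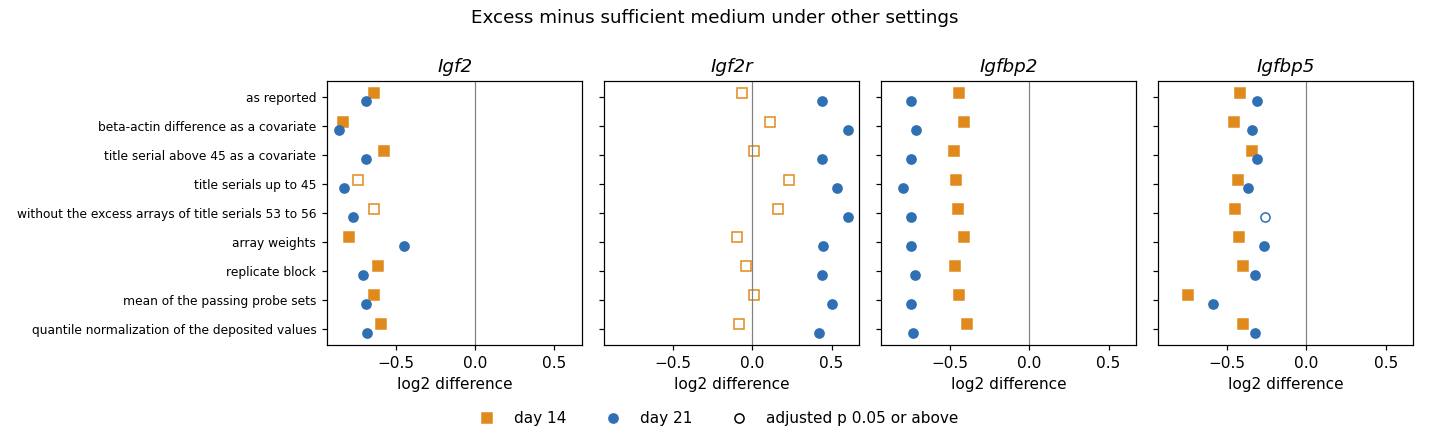
Log2 difference of excess from sufficient medium (x axis) for Igf2, Igf2r, Igfbp2 and Igfbp5 as reported and under 8 other settings (y axis), at day 14 (squares) and day 21 (circles). Open symbols have an adjusted p of 0.05 or above: Igfbp2 keeps its calls at both days, Igf2r is called at day 21 only, Igf2 at day 14 loses its call under 2 of these settings, and Igfbp5 at day 21 loses it without the late excess arrays (title serials 53 to 56).

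H19 is the noncoding gene next to Igf2 on chromosome 1 in the GRCr8 annotation, and the pair is known as an imprinted domain in which each gene is expressed from a different parental copy. In sufficient medium the level of H19 was 8.63 ± 0.21 at day 7, 9.30 ± 0.46 at day 14 and 8.68 ± 0.15 at day 21 (log2, SD, n = 5 each). In excess medium it fell to 7.87 ± 0.09 at day 21, from 8.83 ± 0.16 (SD, n = 4) at day 7. Against sufficient medium at day 21 H19 was lower by 0.81 (-0.81 ± 0.14, limma adjusted p = 9.2e-06), with Igf2 lower at the same time. At day 14 H19 was at 9.10 in excess medium, with arrays overlapping those of sufficient medium, while Igf2 was called lower. The change of the excess effect from day 7 to day 21 was -1.01 for H19 (limma adjusted p = 0.000254) and -0.70 for Igf2 (limma adjusted p = 0.0876). Both day 7 means of Igf2 in that term, 3.41 and 3.40, were at background, so the Igf2 value is not exact. Igf2bp2, which encodes a protein that binds IGF2 messenger RNA, was higher by 0.44 at day 14 and 0.58 at day 21 in excess medium (limma adjusted p = 0.000629 and 1.3e-05).

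**Figure D5:**
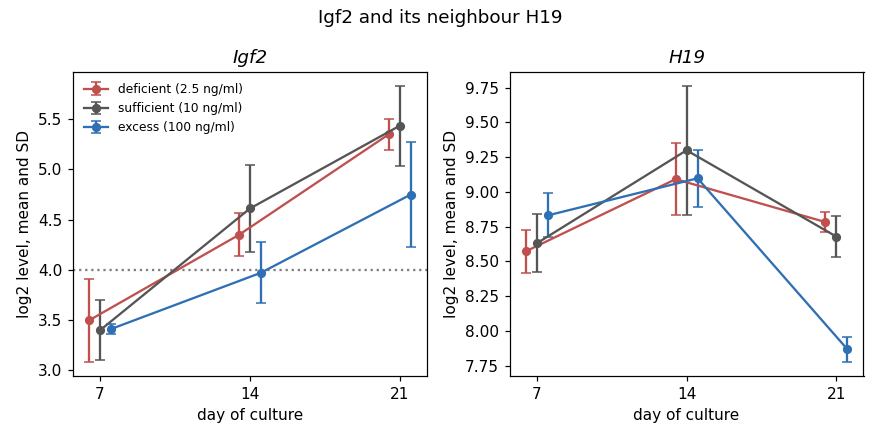
Group means and SDs (y axis, log2) of Igf2 and H19 by day of culture (x axis), with 4 or 5 arrays per point and the background limit dotted for Igf2. In sufficient medium Igf2 goes from 3.40 to 5.43 while H19 is at 8.63 and 8.68 at the ends of the course, and both are lowest in excess medium at day 21 among the media.

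Around the 9 genes, 95 other genes of the pathway were listed, of which 80 are on the array and 63 were tested. In deficient against sufficient medium 0 of 63 were called at each day, and in excess medium 0 of 63 at day 7. In excess medium 16 were higher and 13 lower at day 14, with a median difference of -0.08 against 0.01 over all genes, of which 22.3% were called higher and 18.8% lower. At day 21, 19 were higher and 15 lower, with a median of -0.0024 against 0.03, where 24.4% of all genes were called higher and 19.3% lower. In sufficient medium from day 7 to day 21, 23 rose and 18 fell, with a median of 0.03 against -0.02, where 29.6% of all genes rose and 33.1% fell. Deficient against excess medium had called pathway genes at day 7, where 5% of all genes were called. Among them Eif4ebp1, Dusp6 and Map2k1 were higher in deficient medium (0.51, 0.44 and 0.32), and Plat and Pik3ca were lower (-0.33 and -0.65).

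The counts by role that follow are small and are to be read against the 41.2% and 43.7% of all genes called in excess medium at days 14 and 21. The receptors and docking proteins had 3 higher and 0 lower of 8 tested in excess medium at day 14, and 2 and 2 at day 21. Insr, the insulin receptor that also binds IGF-II, rose in sufficient medium by 0.68 from day 7 to day 21 and was 0.35 lower in excess medium at day 21 (-0.35, limma adjusted p = 0.0213). Grb14, an adaptor that inhibits insulin receptor signalling, rose by 1.57 with time in sufficient medium (limma adjusted p = 2.3e-15). Of the PI3K, AKT and FOXO arm, 2 of 11 were higher and 0 lower at day 14, among them Pik3ca, a catalytic subunit of PI3 kinase, at 0.55 (limma adjusted p = 0.0132), and 1 was higher and 1 lower at day 21.

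In the mTORC1 arm, all 13 were tested, with 4 higher and 3 lower at day 14 and 5 and 4 at day 21. Sesn2, a stress-induced inhibitor of mTORC1, was lower by 0.91 at day 14 (-0.91, limma adjusted p = 2.6e-06), as was Eif4ebp1, the translation inhibitor that mTORC1 phosphorylates (-0.61). Ddit4, another mTORC1 inhibitor, was higher by 0.65 at day 21 (limma adjusted p = 4.3e-06). The MAP kinase arm had 1 higher and 2 lower of 7 at day 14 and 4 and 2 at day 21, and Map2k1, which encodes MEK1, was lower (-0.72, limma adjusted p = 3.4e-12).

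Among proteases that cut binding proteins and their inhibitors, 1 of 6 was higher and 3 lower at day 14, and 2 and 2 at day 21. Mmp2, a matrix metalloproteinase, rose by 2.04 with time in sufficient medium from a level of 3.01, at background, and was 0.91 higher in excess medium at day 21 (limma adjusted p = 4.1e-06). Plat, the tissue plasminogen activator, was 0.70 higher at day 14 (limma adjusted p = 2.2e-10), and Ctsd, a lysosomal protease that IGF2R carries, was 0.58 lower (-0.58, limma adjusted p = 0.000155). Of other proteins with a binding-protein domain or in their complexes, 1 of 6 was higher and 3 lower at day 14, and 2 and 1 at day 21, with Kazald1 higher by 0.50 and 0.66. Genes of IGF2 RNA handling, imprinting and IGF2R ligands had 4 higher and 2 lower of 12 at day 14 and 3 and 3 at day 21, the lowest being Pcsk6, a proprotein convertase (-0.99, limma adjusted p = 8.6e-12). Igfbp7, a related protein of low IGF affinity, was at 12.57 to 13.23, with no call for excess against sufficient medium. Igfbp1 and Igfals, the liver binding protein and the partner of the circulating complex, were at background, at most 2.39 and 2.49 in a group mean.

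Muscle and division genes moved in the same comparisons as the members, in which many of all genes were called. For day 21 against day 7 in sufficient medium, 29.6% of all genes were called higher and 33.1% lower. For excess against sufficient medium the shares were 22.3% and 18.8% at day 14, and 24.4% and 19.3% at day 21. In sufficient medium from day 7 to day 21, 7 of 10 smooth muscle markers were higher and 0 lower, 6 of 7 tested skeletal muscle markers were higher and 1 lower, and 8 of 8 proliferation genes were lower, with median differences of 0.20, 1.07 and -1.97. At day 14 in excess against sufficient medium, 7 of 10 smooth muscle and 5 of 7 skeletal muscle markers were lower and 0 higher, and 7 of 8 proliferation genes were higher and 0 lower. In excess against sufficient medium at day 21, 8 of 10 smooth muscle markers were lower and 0 higher, 5 of 7 tested skeletal muscle markers were lower and 1 higher, and 7 of 8 proliferation genes were higher and 0 lower. The mean level over the smooth muscle list ranged over arrays from 10.77 to 11.16 in sufficient and from 10.23 to 10.35 in excess medium at day 21, that of the skeletal list from 5.78 to 5.94 and from 4.97 to 5.08, and that of the proliferation list from 8.33 to 8.48 and from 9.31 to 9.41. The part of these lists in the time and excess differences of Igf2, Igf2r, Igfbp2 and Igfbp5 was not tested. With the beta-actin difference as a covariate, the day 21 difference of Igf2r was 0.60 (limma adjusted p = 0.000114), that of Igf2 -0.86 (limma adjusted p = 0.00176), that of Igfbp2 -0.71 (limma adjusted p = 1.6e-07) and that of Igfbp5 -0.34 (limma adjusted p = 0.00759).

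Genes with a pattern like that of a member were sought among 1961 tested genes whose group means span at least 1 log2 unit, by Pearson's r over the 9 group means, which share arrays and a common time course. For Igf2 the nearest were Trak1 (r = 0.993), Srl (r = 0.992) and C1qtnf5 (r = 0.992). C1qtnf5 was at 4.13 in sufficient medium at day 7, 6.01 at day 21, and 5.32 in excess medium at day 21. For Igfbp2 they were Psca (r = 0.935), Mybpc2 (r = 0.921) and Lims2 (r = 0.918). Psca had its highest mean in sufficient medium at day 14 (11.38) and its lowest in excess medium at day 21 (9.96), as Igfbp2 did. Shared extremes follow from picking genes by likeness, and 4 of the 9 Igfbp2 means are at background. The other 5 tested members span less than 1 log2 unit, and no such genes were sought for them.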

How the data were processed

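Values were used as deposited by the authors, on a log2 scale, for 31099 probe sets in 43 arrays. The submitters' processing notes name GCRMA, a method that adjusts for probe sequence background, applies quantile normalization and gives 1 value per probe set. Low values lie near background, where ratios are understated. The notes also name limma and give no versions. Array medians were 3.66 to 3.72, and 0 pairs of arrays held identical values. Depth does not apply to arrays, and their number limits the precision.

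Groups and replicate numbers come from the sample titles. Of the probe sets, 20826 had 1 symbol and 436 several, which were not named, and 57 controls were left out. Genes with a log2 value above 4 in at least 4 arrays, 9095 of 14217, were fitted together with limma 3.58.1 (R 4.3.3), 1 mean per group and 34 residual degrees of freedom, each at its brightest probe set. Each of 16 comparisons was tested two-sided, with Benjamini-Hochberg adjustment over all genes tested and a threshold of 0.05. The script was tested on simulated data. Errors of levels are SDs and of differences SEs. Calls for single probe sets come from the same model on all probe sets that passed the filter.

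All members are named. Other named genes are the 3 most alike over group means, with a span of at least 1 log2 unit, and genes among the up to 3 called pathway genes at each end of a comparison. Insr, Igfbp7, Igfbp1 and Igfals were added after their values were seen. The members and lists were chosen with earlier results of these data known. Same-numbered replicates correlated above 0.1 in 7 of 33 pairs (-0.54 to 0.59), which does not settle whether the numbers pair the arrays. The labels do not say so, and the main fit did not pair them. Alternatives changed the filter, probe set, normalization, variance model, covariates and arrays. Promoter sequences are RefSeq's (GRCr8), matched by symbol for all 9 genes. Plots used Python 3.11.15, pandas 2.3.3, numpy 2.4.6 and matplotlib 3.10.9.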

Additional observations from a re-analysis of the deposited data

Results flagged for a closer look

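In 4 of the 81 sets of arrays examined (9 genes in 9 groups), 1 array stood apart from the others of its group, where chance gives about 1 in 20. Igfbp2 was at 4.84 in day 14 sufficient replicate 4, an array of title number 49, against 4.49 to 4.57 in the other 4. Igfbp3 was at 2.94 in day 7 sufficient replicate 1, against 2.42 to 2.53, all at background. Igfbp5 was at 7.64 in day 7 deficient replicate 2, against 7.93 to 7.96. Igfbp5 was also at 8.68 in day 21 excess replicate 4, against 8.30 to 8.39, and this array is the one that overlapped the sufficient range.

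The difference of excess from sufficient medium changed between day 7 and day 21 for 2 of the 7 tested genes (limma interaction term). In that term 24.5% of all genes were called, so the count is near the background. The other 7 of the 14 interaction tests were for deficient medium, with 0 called (background 0.044%). For Igf2r the difference went from -0.145 at day 7 to 0.439 at day 21, a change of 0.58. For Igfbp2 the change was -0.65, with levels at background in 3 of the 4 groups involved.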

How the results depend on the processing

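Of the gene values recomputed under other settings, 2638 kept their side of the threshold, 51 lost a call, 19 gained one and 0 called values reversed. A filter at log2 above 6 left only Igf1r, Igf2r and Igfbp5 testable and so reduced the counts of called genes. Excess against sufficient medium then gave 1 at day 14 and 2 at day 21, deficient against excess 1 at day 14 and 1 at day 21, and day 21 against day 7 gave 2 in deficient, 2 in sufficient and 1 in excess medium. Day 14 against day 7 gave 1 and day 21 against day 14 gave 2 in sufficient medium, and the change of the excess effect 1. A covariate for title numbers above 45 gave 1 for excess against sufficient medium at day 7 and 1 for the change of the deficiency effect, both Igf1. Title numbers up to 45 alone gave 2 for deficient against excess medium at day 14 and 2 for day 21 against day 14 in sufficient medium. Leaving out each replicate in turn gave 0 to 1 for excess against sufficient medium at day 7 (1 without excess replicate 6) and 3 to 5 for day 14 against day 7 in sufficient medium (3 without day 7 replicate 6). The share of all genes called under each other setting is not given, so these counts can be set only against those of the main fit. Beyond the stricter filter, which leaves fewer genes, the cause was not tested.

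A replicate block from the replicate numbers in the titles left 3 and 4 calls for excess against sufficient medium at days 14 and 21 and changed no count. Whether those numbers pair the arrays is not stated in the labels. The fit without excess arrays of title numbers 53 to 56 was chosen after seeing the data. Calls of Igf1 and Igfbp6, and of Igf2 at day 14, depended on single arrays or settings. Values near log2 4 limit Igf2, Igfbp2, Igf1 and Igfbp6, and neither Igfbp3 nor Igfbp4 could be tested.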
